A study of Mus musculus with 11 samples.

Results

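Across 11 libraries of sorted thymic epithelium, the transcript of Aire itself ran from 174 to 858 CPM, and the libraries were divided here by that level. The libraries of each side were chosen by their measured CPM of Aire (its count over the total count of the library, scaled to 1e6). An Aire-high library held at least 500 CPM, and an Aire-low library held fewer. By this rule 6 of the 11 libraries were Aire-high and 5 were Aire-low. The division comes from a measured value and crosses the genotypes of the study, so it is not a comparison the study set up. Aire was left out of every gene test and list for that reason, and its own difference is only described.

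All mice were of the NOD strain, which is prone to autoimmune diabetes, and were aged 4 to 8 weeks. They carried the missense variant R249C of Aire on neither, on one or on both alleles (3 libraries of WT/WT, 5 of WT/R249C and 3 of R249C/R249C). Thymus tissue was digested, cells bearing CD45 (the marker of blood-derived cells) were removed on beads, and cells positive for the epithelial surface protein EpCAM were sorted, so every library mixes cortical and medullary epithelium. On the Aire-high side 1 library was WT/WT, 3 were WT/R249C and 2 were R249C/R249C; on the Aire-low side 2 were WT/WT, 2 were WT/R249C and 1 was R249C/R249C. The labels name 2 batches, of which batch A gave 4 Aire-high and 3 Aire-low libraries and batch B gave 2 of each. WT/R249C replicates 4 and 5, both of batch B, are WT/R249C by title and R249C/R249C by their genotype field, and are called by their titles here.

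Aire is a transcriptional regulator of mature medullary thymic epithelial cells. In these cells it lets many genes of other tissues be transcribed, so that developing T cells meet their products in the thymus. Signals through the receptors RANK and CD40, relayed by NF-kB, bring medullary cells to the stage that carries Aire, high MHC class II and the costimulatory protein Cd80. Some of these cells later adopt programmes of peripheral tissues such as skin, gut tuft cells or muscle, and are then called mimetic cells. Fezf2 is a second regulator of tissue genes in the same compartment.

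Aire stood at 174, 312, 318, 391 and 425 CPM in the Aire-low libraries. These were WT/R249C replicate 2, WT/WT replicate 1, R249C/R249C replicate 2, WT/WT replicate 2 and WT/R249C replicate 5, and values of Aire-low libraries below follow that order of rising Aire. The first 3 of these libraries are of batch A and the last 2 of batch B. A rise or fall along that order is therefore also in part a step between batches. In the Aire-high libraries Aire ran from 589 over a median of 701 to 858 CPM. The library just inside the threshold was WT/R249C replicate 4, at 589, and the one just outside was WT/R249C replicate 5, at 425, so the libraries nearest the threshold on both sides are those whose genotype labels conflict. The means were 708 ± 105 (SD, n = 6) and 324 ± 96.9 (SD, n = 5). All libraries numbered 2 in the titles were Aire-low and all numbered 3 were Aire-high. Total counts ran from 60560348 in WT/R249C replicate 3 to 182319976 in WT/WT replicate 3, both Aire-high libraries. In the gene annotation used for names, Dnmt3l overlaps Aire on the other strand, and its level ran from 0 to 29.8 CPM.

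**Figure D1:**
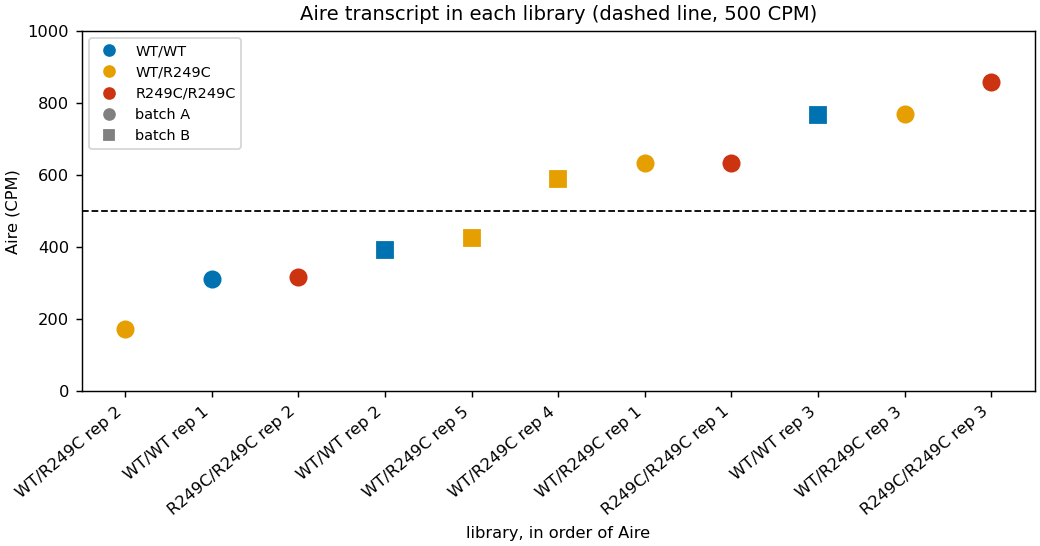
Aire CPM (y axis) in each of the 11 libraries (x axis, ordered by level), coloured by genotype, with marker shape for batch and a dashed line at the threshold of 500 CPM. The lowest library is at 174, the libraries beside the threshold are at 425 and 589, and the highest is at 858.

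The promoters of 4 genes described below are shown for orientation. Nfkbie, Nfkb2 and Cdk1 are shown because NF-kB members and cell cycle genes recur among the values, and Igfbp5 as a gene of smallest p on the lower side. These 4 were chosen for display and each holds a match, so they do not stand for the other genes described. Each line gives the 250 bases before the start of the gene, 5′ to 3′ on the strand of the gene, from RefSeq on the mouse build GRCm38.p6, which is not the build of the counts. Capitals mark matches to the NF-kB consensus of 10 bases or to CCAAT, on either strand (CCAAT on the other strand reads ATTGG). Nfkbie lies at chr17:45555450-45555699, Nfkb2 at chr19:46304487-46304736, Igfbp5 at chr1:72874866-72875115 and Cdk1 at chr10:69352913-69353162, the last 2 on the minus strand.
Nfkbie: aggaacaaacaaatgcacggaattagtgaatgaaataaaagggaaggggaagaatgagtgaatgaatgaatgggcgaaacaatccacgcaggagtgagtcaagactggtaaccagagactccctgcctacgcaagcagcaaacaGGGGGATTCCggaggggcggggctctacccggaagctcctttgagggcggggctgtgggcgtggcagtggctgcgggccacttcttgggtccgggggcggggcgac
Nfkb2: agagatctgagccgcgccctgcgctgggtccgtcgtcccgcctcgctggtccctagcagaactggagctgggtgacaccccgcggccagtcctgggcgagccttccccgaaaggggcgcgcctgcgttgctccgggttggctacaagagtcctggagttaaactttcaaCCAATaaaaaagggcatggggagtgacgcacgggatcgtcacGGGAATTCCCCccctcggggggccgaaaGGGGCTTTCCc
Igfbp5: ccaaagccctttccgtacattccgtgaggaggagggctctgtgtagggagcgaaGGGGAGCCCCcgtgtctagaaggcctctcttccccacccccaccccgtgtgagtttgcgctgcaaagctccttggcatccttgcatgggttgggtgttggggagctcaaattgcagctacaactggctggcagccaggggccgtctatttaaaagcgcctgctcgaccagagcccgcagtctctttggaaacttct
Cdk1: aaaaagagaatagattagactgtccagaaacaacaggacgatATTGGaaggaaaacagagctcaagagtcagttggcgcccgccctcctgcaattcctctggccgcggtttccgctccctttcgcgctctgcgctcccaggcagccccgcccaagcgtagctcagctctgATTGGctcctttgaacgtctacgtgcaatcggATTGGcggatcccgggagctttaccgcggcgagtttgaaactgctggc
The match in Nfkbie begins 106 bases before the start, and that in Igfbp5 begins 196 bases before it. In Nfkb2 there are 3 NF-kB matches, beginning 39, 38 and 11 bases before the start, of which the first 2 overlap and are printed as 1 capital run. Cdk1 has 3 CCAAT matches. Among all 27025 promoters of the table, 3.75% held a match to the NF-kB consensus and 34.5% held CCAAT.

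No gene passed the threshold for a difference between the 2 sides in the main test. That test was the quasi-likelihood test of edgeR over 23506 genes with batch as a term, and the smallest adjusted p was 0.12. Without adjustment, 886 genes had a higher and 639 a lower level in Aire-high libraries at p under 0.05, which is 3.77% and 2.72% of the genes tested and 6.49% together. The other models made calls: limma voom with quality weights called 55 genes higher and 9 lower (0.234% and 0.0383%), and DESeq2 called 343 higher and 131 lower (1.46% and 0.557%, together 2.02%). Of the 64 genes called by voom, DESeq2 called 61 too. The log2 fold changes of the voom calls ran from -8.06 for the gene model Gm37024 to 9.11 for Tnfaip8l3. Among the higher calls, Try5 (7.99, the smallest adjusted p by voom, 0.0124), Ccdc180 (7.70) and Spag6 (7.30) also lay far beyond the 8 genes of smallest p described below. The levels of these genes are not described here. The groups did not overlap at all for 319 genes (1.36%), with 227 higher in every Aire-high library and 92 lower. Fitting the level of Aire as a continuous term in place of the threshold also gave 0 edgeR calls (smallest adjusted p 0.0507), with a positive slope for 821 genes (3.49%) and a negative one for 613 (2.61%) at an unadjusted p under 0.05. A gene is called higher or lower by voom or DESeq2 only where that tool is named, and its adjusted p by edgeR was never under 0.05. Nothing says how many mice a library pools, so all p-values measure the spread between these libraries.

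The 8 genes of smallest p on the higher side were Utf1, Alox12e, Syngr2, Tbc1d4, Rasd1, Actn3, Nfkbie and Mob3a. Each had an adjusted p of 0.12 by edgeR, and each was called higher by both voom and DESeq2. For 7 of the 8 the groups did not overlap, the exception being Actn3, beside 0.966% of all genes tested. The 8 were chosen by their p on these same libraries. Their calls, separation and fold changes under other settings therefore describe them and are no separate support. Their log2 fold changes lay between 0.81 and 1.46 with any 1 library left out, between 0.86 and 1.60 within batch A, between 0.76 and 1.08 within batch B and between 0.91 and 1.35 with genotype as a further term.

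Utf1, a chromatin-bound transcription factor known from undifferentiated embryonic cells, stood at 51.6, 57.1, 71.1, 114 and 116 CPM in the Aire-low libraries. In the Aire-high libraries it ran from 146 over a median of 200 to 267 CPM. Every Aire-high library lay above every Aire-low one, and the order of the Aire-low libraries was that of Aire itself. The log2 fold change was 1.36 (SE 0.17, 95% interval 0.97 to 1.74). Alox12e, a lipoxygenase of the epidermal kind, was at 182, 173, 147, 248 and 324 CPM against 387 to 559, with a median of 424. The groups were again apart, and the log2 fold change was 1.08 (SE 0.14). Its smallest Aire-high value, 387, was close to the 324 of WT/R249C replicate 5.

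Nfkbie encodes an inhibitor that holds NF-kB dimers in the cytoplasm. It was at 103, 102, 98.9, 126 and 87.8 CPM in Aire-low libraries and from 174 over a median of 182 to 231 CPM in Aire-high ones. The Aire-low values were close to each other and did not follow the order of Aire within that side. The log2 fold change was 0.87 (SE 0.13), with an adjusted p of 1.75e-07 by DESeq2 and 0.0322 by voom. Rasd1, a small Ras-like GTPase induced by glucocorticoid, showed the same flat shape on the Aire-low side, at 38.3, 39.5, 51.1, 50.8 and 44 CPM. Its Aire-high values ran from 77.8 over a median of 83.3 to 117 CPM, the highest in WT/WT replicate 3.

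Syngr2, a vesicle membrane protein, was at 164 to 261 CPM in Aire-low and 360 to 467 CPM in Aire-high libraries. Tbc1d4, which restrains Rab GTPases in the traffic of glucose transporters, was at 36.1 to 71.0 and 85.2 to 121 CPM, and Mob3a, of the MOB family of kinase adaptors, at 75.3 to 121 and 153 to 233 CPM. These 3 genes had means 2.01-fold, 2.08-fold and 2.05-fold higher. Actn3, the alpha-actinin of fast muscle fibres, was at 139, 158, 179, 253 and 353 CPM against 333 to 551, and WT/R249C replicate 5 at 353 was inside the Aire-high range. Syngr2 and Mob3a share sequence with neighbouring gene models in the annotation, and it is not given whether the counting used strand, so their reads and those of the neighbours cannot be told apart.

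**Figure D2:**
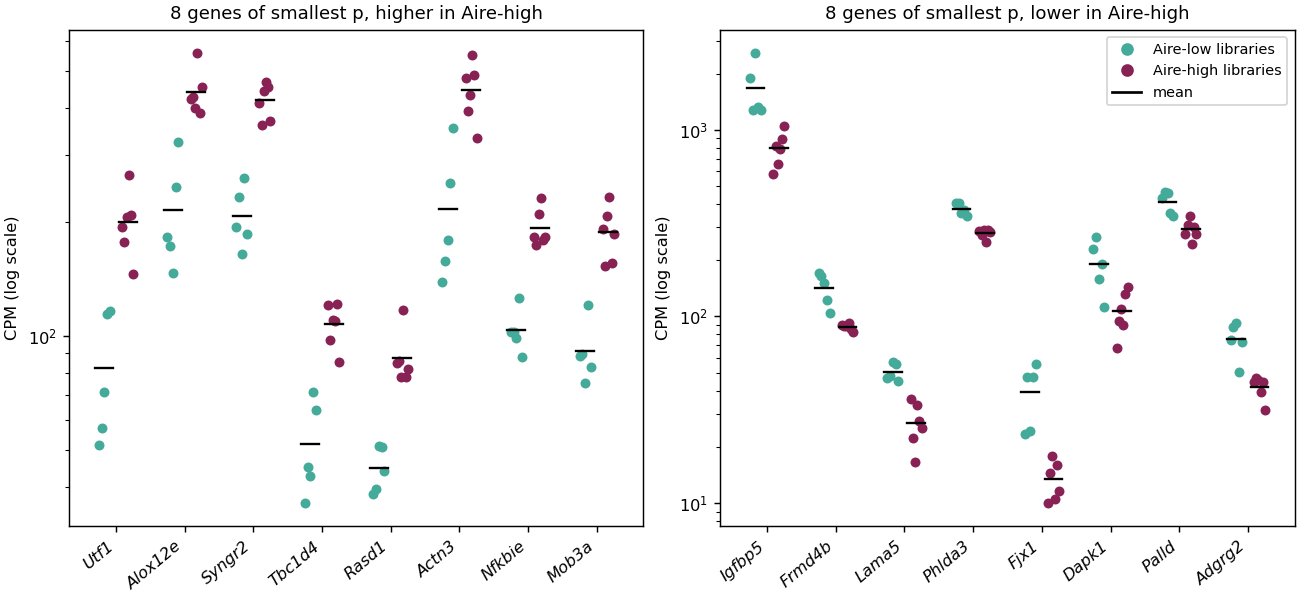
CPM on a log axis (y) for the 8 genes of smallest p on the higher side (left) and on the lower side (right), with 1 point per library coloured by side of the Aire threshold, and the mean as a bar. The groups do not touch for 7 of 8 genes in each panel, with Actn3 and Dapk1 as the exceptions.

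The 6 genes of smallest p for a positive slope on Aire were Ankrd33b, Hagh, Snx8, Cnmd, Grap and Syt1. All 6 were called higher by DESeq2 on the division at 500 CPM, and Hagh also by voom. The slope and the division use the same libraries, so these calls are no separate support. Hagh, the second enzyme of the glyoxalase pathway, was at 130, 149, 176, 256 and 258 CPM against 332 to 388. Grap, an adaptor of receptor signalling, was at 30.8, 48.4, 62.0, 99.8 and 97.0 CPM against 128 to 156. In both genes the 2 Aire-low libraries of batch B lay nearest the Aire-high ones, and the groups did not overlap. Cnmd, a cartilage glycoprotein, was at 71.6 to 207 CPM against 236 to 486. Snx8, a sorting nexin of endosomes, was at 28.8 to 74.3 CPM against 92.7 to 138, and Ankrd33b at 37.8 to 96.8 against 100.02 to 226. Hagh and Grap overlap genes on the other strand.

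On the lower side the 8 genes of smallest p were Igfbp5, Frmd4b, Lama5, Phlda3, Fjx1, Dapk1, Palld and Adgrg2. Their adjusted p by edgeR ran from 0.12 to 0.203. DESeq2 called all 8 lower and voom called 3 of them, Igfbp5, Frmd4b and Phlda3. The groups did not overlap for 7 of the 8, the exception being Dapk1, beside 0.391% of all genes tested. These 8 too were chosen by their p on these same libraries, so such values describe them and are no separate support. Their log2 fold changes lay between -1.76 and -0.43 with any 1 library left out, between -1.19 and -0.47 within batch A and between -2.34 and -0.32 within batch B.

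Igfbp5, a secreted binding protein of insulin-like growth factors, was the most abundant of these. It stood at 1906, 1281, 2586, 1322 and 1276 CPM in the Aire-low libraries and ran from 577 over a median of 804 to 1051 CPM in the Aire-high ones. No Aire-high library reached the lowest Aire-low value, and the log2 fold change was -1.12 (SE 0.18, 95% interval -1.52 to -0.72). Lama5, a laminin chain of epithelial basement membranes, was at 46.6, 48.1, 56.8, 55.6 and 44.9 CPM against 16.6 to 36.2. Its Aire-low values were nearly level over a wide span of Aire.

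Fjx1, a secreted protein of the four-jointed family, had the largest fold of the 8, with a mean 2.95-fold higher in Aire-low libraries. It was at 23.5, 47.1, 24.3, 47.0 and 55.7 CPM against 9.94 to 17.9. Dapk1, a death-associated protein kinase, was at 231, 266, 159, 192 and 113 CPM against 68.0 to 145, and WT/R249C replicate 5 at 113 overlapped the Aire-high range. Palld (palladin, of actin bundles) was at 347 to 464 CPM against 244 to 344. Phlda3, an inhibitor of Akt signalling downstream of p53, was at 345 to 407 against 250.1 to 291, and Adgrg2, an adhesion receptor, at 50.6 to 92.4 against 31.5 to 46.9. Frmd4b, a scaffold of epithelial junctions, was lower in each Aire-low library than in the one with less Aire, at 171, 164, 151, 123 and 104 CPM, against 82.3 to 91.8.

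The 6 genes of smallest p for a negative slope were Frmd4b again, Sfxn3, Stim1, Fkbp10, Nedd4 and Sh2d1b1. Stim1, the calcium sensor of the endoplasmic reticulum, was at 80.3, 88.4, 54.4, 41.8 and 54.1 CPM against 32.5 to 43.0. Sfxn3, a mitochondrial carrier, was at 76.0 to 139 CPM against 51.0 to 73.1. Nedd4, a ubiquitin ligase, was at 852 to 1278 CPM against 729 to 901, and Fkbp10, a chaperone of collagen folding, at 51.3 to 96.4 against 43.1 to 64.4. DESeq2 called these 4 genes lower, and the groups overlapped in all but Sfxn3. Sh2d1b1 was near 0 everywhere, between 0.203 and 4.04 CPM in Aire-low and between 0 and 0.96 in Aire-high libraries.

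Of the markers named with the division, Fezf2 followed Aire more closely than Cd80 across the 11 libraries (Pearson r 0.91 and 0.82). Within batch A the order was reversed (0.93 and 0.97). Fezf2 was at 101, 125, 192, 299.8 and 243 CPM in Aire-low libraries and from 362 over a median of 382 to 488 CPM in Aire-high ones, so the groups did not overlap. The means were 401 ± 48.9 (SD, n = 6) and 192 ± 82.1 (SD, n = 5). The log2 fold change was 1.14 (SE 0.24), with an adjusted p of 0.22 by edgeR, 0.0627 by voom and 0.00103 by DESeq2. Cd80, the costimulatory ligand, was at 4.47, 11.3, 11.6, 44.1 and 37.8 CPM against 24.2 to 72.8. Within batch A its log2 fold change was 2.27 and within batch B it was -0.66. The Aire-low libraries of batch B, at 44.1 and 37.8, lay above both Aire-high libraries of that batch. The edgeR test of that difference between batches gave an adjusted p of 0.815.

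Across the 11 libraries, log2(CPM + 1) of 10 genes was correlated with that of Aire. Permutation of the libraries (100000 resamples, two-sided) gave Benjamini-Hochberg adjusted p-values over the 10. Fezf2 had a Pearson r of 0.91 (permutation p 5e-05, adjusted 5e-04) and a Spearman rho of 0.77 (permutation p 0.00749, adjusted 0.0422). Cd40 had an r of 0.89 (permutation p 0.00023, adjusted 0.00115) and a rho of 0.76 (permutation p 0.00845, adjusted 0.0422). Cd80 and Tnfrsf11a, which encodes RANK, had r of 0.82 and 0.74 with adjusted permutation p of 0.008 and 0.0263. Their rho of 0.60 and 0.68 did not pass, with adjusted permutation p of 0.144 and 0.0843. The other 6 genes did not pass by either measure. Their r were 0.55 for the milk casein Csn2, 0.49 for the MHC class II chain H2-Aa, 0.36 for the chemokine Ccl22 and 0.27 for the keratin Krt10. They were 0.10 for the cortical protease Prss16 and -0.05 for Ccl21a, the chemokine of immature medullary cells.

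Leaving out the 2 libraries farthest from the median of Aire, WT/R249C replicate 2 and WT/WT replicate 1, gave an r of 0.81 for Fezf2 and 0.78 for Cd40, each with an adjusted permutation p of 0.0353. Their rho of 0.58 and 0.57 did not pass there (adjusted permutation p 0.601 for each), nor did rho within batch A (0.167 for each) or with TMM-scaled CPM (0.0551 and 0.0602). It gave 0.61 for Tnfrsf11a and 0.50 for Cd80, with adjusted permutation p of 0.192 and 0.436, so neither passed without these 2 libraries. For Csn2 the r was then 0.09. Within the 7 libraries of batch A the r were 0.93 for Fezf2, 0.97 for Cd80, 0.93 for Cd40 and 0.82 for Tnfrsf11a. Their adjusted permutation p were 0.022, 0.0193, 0.022 and 0.0678, so Tnfrsf11a did not pass. The rho of Cd80 and Tnfrsf11a did not pass within batch A either (adjusted permutation p 0.126 and 0.167). Batch B has 4 libraries, too few for a value.

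**Figure D3:**
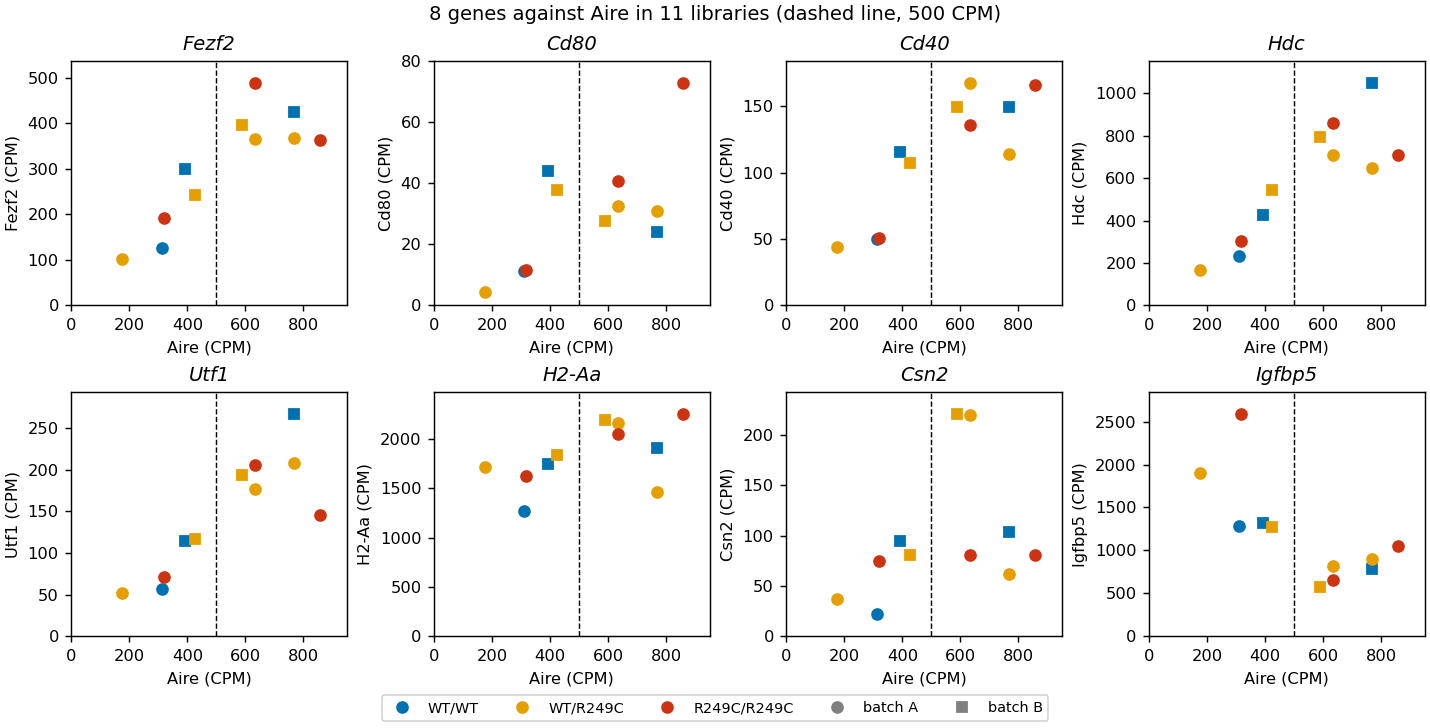
CPM of Aire (x axis) against CPM of another gene (y axis) with 1 point per library, coloured by genotype and shaped by batch, and a dashed line at 500 CPM of Aire. Fezf2 runs from 101 to 299.8 among the Aire-low libraries and lies between 362 and 488 among the Aire-high ones, while Cd80 in batch B (44.1 and 37.8 CPM on the Aire-low side) lies apart from batch A.

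Gene lists were read by the count of members above 0 on the log2 fold scale and by their median, beside all genes tested, of which 54.1% were above and 45.9% below 0 with a median of 0.05. The lists came from general knowledge of the thymus and were not given a test of their own. Of all genes tested, DESeq2 called 1.46% higher and 0.557% lower, and voom called 0.234% and 0.0383%. The groups did not overlap for 0.966% of all genes tested on the higher side and 0.391% on the lower side. Counts of list members called, or apart between the sides, are to be read beside these shares. These are bulk libraries, so fewer cells of a type and less RNA per cell cannot be told apart in any of them.

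Of 14 markers of mature medullary cells, 12 had a fitted log2 fold change above 0 (9 within batch B), with a median of 0.89. Of the 14, DESeq2 called 4 higher (Fezf2, Cd40, Icosl and Hdc) and voom called Hdc, beside 1.46% and 0.234% of all genes tested. Hdc, the enzyme that makes histamine, was at 170, 235, 305, 427 and 544 CPM against 646 to 1048, and its order in the Aire-low libraries was that of Aire. Icosl, the ligand of the T-cell costimulator ICOS, was at 147, 152, 130, 249.7 and 268 CPM against 308 to 540. Both were apart between the sides, beside 0.966% of all genes tested, with means 2.36-fold and 2.17-fold higher. Cd40 was at 43.7, 49.9, 51.2, 116 and 108 CPM against 114 to 167, so WT/WT replicate 2 at 116 touched the Aire-high range. Ccl22 did not differ beyond its spread, with a log2 fold change of 0.03 (SE 0.40).

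The summed level of the 14 markers was 733 to 1699 CPM on the Aire-low side and 1878 to 2629 CPM on the Aire-high side. Within genotypes, the mean log2(CPM + 1) of the list was higher on the Aire-high side by 0.80 among WT/WT, by 0.52 among WT/R249C and by 0.91 among R249C/R249C libraries, where each genotype has only 1 to 3 libraries a side. By batch the median log2 fold change was 1.11 in batch A and 0.20 in batch B.

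Most of the receptors and relays that lead to NF-kB lay above 0. Of the 16 genes of the RANK, CD40 and NF-kB list, 12 were above 0 with a median of 0.62 (0.58 in batch A, 0.29 in batch B). At an unadjusted edgeR p under 0.05, 7 members were higher and 1 lower, beside 3.77% and 2.72% of all genes tested. DESeq2 called Cd40 and Nfkb2 higher and Nfkb1 lower, beside 1.46% and 0.557% of all genes tested. Nfkb2, the precursor subunit of the non-canonical branch, was at 143, 169.8, 160.5, 198 and 141 CPM against 210.3 to 313, with no overlap. Nfkb1, the precursor subunit of the canonical branch, went the other way, at 268, 221, 321, 288 and 178 CPM against 145 to 190.4, and WT/R249C replicate 5 at 178 lay inside the Aire-high range. Their log2 fold changes were 0.64 (SE 0.13) and -0.60 (SE 0.17), with DESeq2 adjusted p of 0.00482 and 0.0267. Relb, the partner of the Nfkb2 product, was at 75.0 to 198 CPM against 169 to 235, and Rela at 74.2 to 126 against 79.5 to 138. Tnfrsf11a was at 19.2, 54.5, 14.8, 94.4 and 76.3 CPM against 62.0 to 109, so the Aire-low libraries of batch B again lay inside the range. A match to the NF-kB consensus was found in the promoters of 3 of the 12 list genes that had one in the table (Nfkb2, Traf3 and Nfkbia), beside 3.75% of all promoters. Of the mature medullary markers, 2 of 12 promoters held one (Fezf2 and Pdcd1lg2). Such counts are small and were not tested. Among the genes of smallest p it was found in 1 of 6 on the higher side (Nfkbie) and 2 of 7 on the lower side (Igfbp5 and Adgrg2). Nfkb2 overlaps Psd on the other strand.

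Antigen presentation by MHC class II differed by small amounts. In the list of 12 genes, 10 were above 0 with a median of 0.27, and the value was 0.29 in batch A and 0.27 in batch B. The only member called by DESeq2 was Ctss, the protease that trims the invariant chain, at 20.9, 32.3, 53.3, 82.6 and 56.9 CPM against 57.3 to 128. H2-Ab1 was at 5427, 6048, 5759, 6024 and 6161 CPM against 6252 to 7109. H2-DMb1, a chain of the peptide exchanger H2-DM, was at 186 to 229 against 236 to 278. Both genes were apart between the sides, beside 0.966% of all genes tested, with log2 fold changes of 0.15 (SE 0.09) and 0.25 (SE 0.10). CCAAT, part of the class II promoter, was found in 7 of 9 promoters of the list, beside 34.5% of all promoters. MHC class I genes had a median of 0.02, with 6 of 10 above 0.

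**Figure D4:**
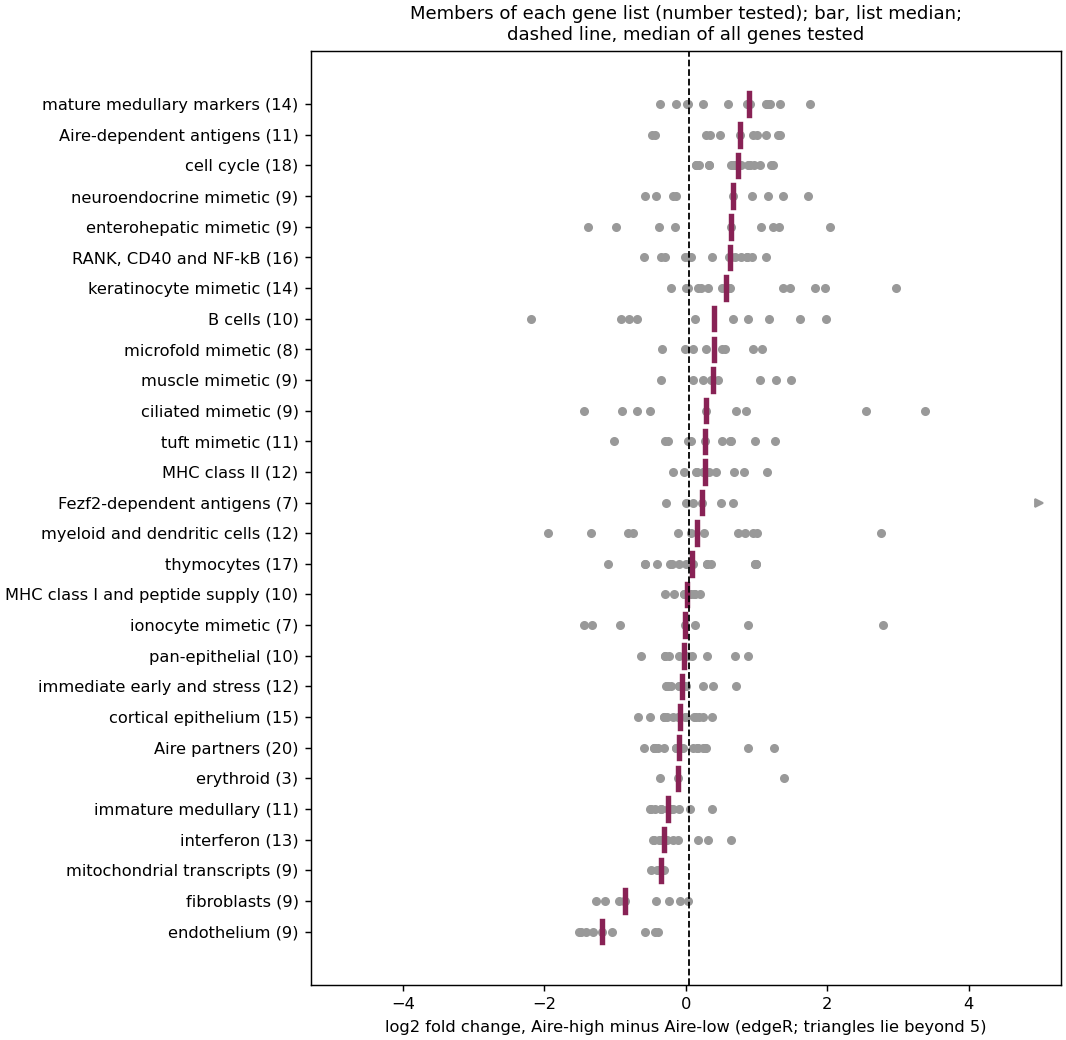
Fitted log2 fold change of Aire-high over Aire-low libraries (x axis) for the members of each gene list (y axis), with 1 point per gene a bar at the list median and a dashed line at the median of all genes. Cell cycle genes all lie above 0 with a median of 0.74, while endothelial genes all lie below 0 with a median of -1.19.

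Cell cycle genes were the list with every tested member above 0, 18 of 18 (13 within batch B), at a median of 0.74 (0.99 in batch A, 0.36 in batch B). DESeq2 called 3 of the 18 higher, beside 1.46% of all genes tested. Cdk1, the kinase of mitotic entry, was at 15.6, 13.9, 13.1, 20.6 and 16 CPM against 19.7 to 50.4. Birc5, a mitotic survivin protein, was at 3.98 to 15.4 against 12.4 to 30.9, and Tyms, which makes thymidylate, at 16.2 to 49.1 against 37.7 to 57.8. In all 3 the groups overlapped. Hmgb2, a chromatin protein of dividing cells, was the 1 member of 18 apart, beside 0.966% of all genes tested, at 42.3 to 56.1 CPM against 62.2 to 102. Mki67, the marker of cycling cells, was at 15.1 to 58.8 against 18.4 to 42.8 CPM, with a log2 fold change of 0.14 (SE 0.35). CCAAT was found in 14 of the 16 promoters of the list, beside 34.5% of all promoters, and the difference was not tested.

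Proteins reported to work with Aire did not shift as a list. Of 20 genes, 8 were above 0 and the median was -0.10. Sirt1, the deacetylase that acts on Aire, was called higher by DESeq2, at 18, 34, 24.8, 63.6 and 19.2 CPM against 56.7 to 82.2. WT/WT replicate 2 at 63.6 was the Aire-low library inside the Aire-high range.

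Tissue antigens that need Aire were low and scattered. Of the 14 list entries 11 were tested, 9 were above 0 and the median was 0.76 (1.12 in batch A, 0.20 in batch B). Without WT/R249C replicate 1 the median was 0.38. Neither voom nor DESeq2 called any of them. Csn2 was at 37.5, 22.4, 75.0, 94.4 and 81.3 CPM against 61.6 to 221. Ins2, insulin, was at 0 to 2.35 against 0 to 3.81 CPM, and Mup1, a urinary protein of liver, at 0.329 to 2.75 against 0.62 to 2.10. Within genotypes the mean log2(CPM + 1) of the list was higher on the Aire-high side by 1.10 in WT/WT and 0.33 in R249C/R249C, and differed by -0.08 in WT/R249C. Each genotype has only 1 to 3 libraries a side and these values carry no adjustment for batch, so they do not show a difference between genotypes. Antigens that need Fezf2 had 6 of 7 members above 0 and a median of 0.22, and it was -0.29 within batch B. Without WT/R249C replicate 1 it was 0.07, and without WT/R249C replicate 2 it was 0.46.

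The breadth of the transcriptome was counted after thinning every library to 60560348 counts. At least 1 count was found for 26979 ± 2993 genes (SD, n = 6) on the Aire-high side and 24928 ± 1930 (SD, n = 5) on the Aire-low side. Over the 462 ways to divide the libraries, the exact permutation test gave a two-sided p of 0.216, where the smallest possible is 0.00216. With at least 10 counts the numbers were 22476 and 20893 genes (exact permutation p 0.225).

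Mimetic lists differed in how far their members spread. Keratinocyte genes had 13 of 14 members above 0 and a median of 0.56, muscle genes 8 of 9 and 0.38, tuft genes 8 of 11 and 0.27, and microfold genes 6 of 8 and 0.39. Neuroendocrine and enterohepatic genes had 5 of 9 each, with medians of 0.66 and 0.63, and ionocyte genes 3 of 7 with -0.02 (1.66 without WT/WT replicate 1). Ciliated genes had 5 of 9 and a median of 0.29, which was -0.16 without WT/R249C replicate 5. Within batch B the keratinocyte, microfold, neuroendocrine and enterohepatic medians were -0.08, -0.01, -0.08 and -0.65. The enterohepatic median was -0.06 without WT/R249C replicate 1, the microfold one 0.18 without WT/R249C replicate 2, and the keratinocyte and neuroendocrine ones 0.37 without WT/R249C replicates 2 and 3 in turn. The tuft median was 0.08 without WT/WT replicate 2 and the muscle one 0.10 without WT/WT replicate 3. DESeq2 called Insm1 and Syt1 higher among the 9 neuroendocrine genes and Cdx1 among the 9 enterohepatic genes, and no member of the other mimetic lists, beside 1.46% of all genes tested. Syt1, the calcium sensor of synaptic vesicles, was at 41.8, 69.8, 49.6, 109 and 118 CPM against 133 to 313. Insm1, a transcription factor of neuroendocrine cells, was at 16.5 to 52.4 against 41.6 to 93.1, and Cdx1, an intestinal transcription factor, at 73.3 to 289.7 against 296 to 588. Syt1 and Cdx1 did not overlap between the sides, beside 0.966% of all genes tested. Spib, a regulator of microfold cells, was at 22.4 to 85.3 against 42.7 to 115 CPM.

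**Figure D5:**
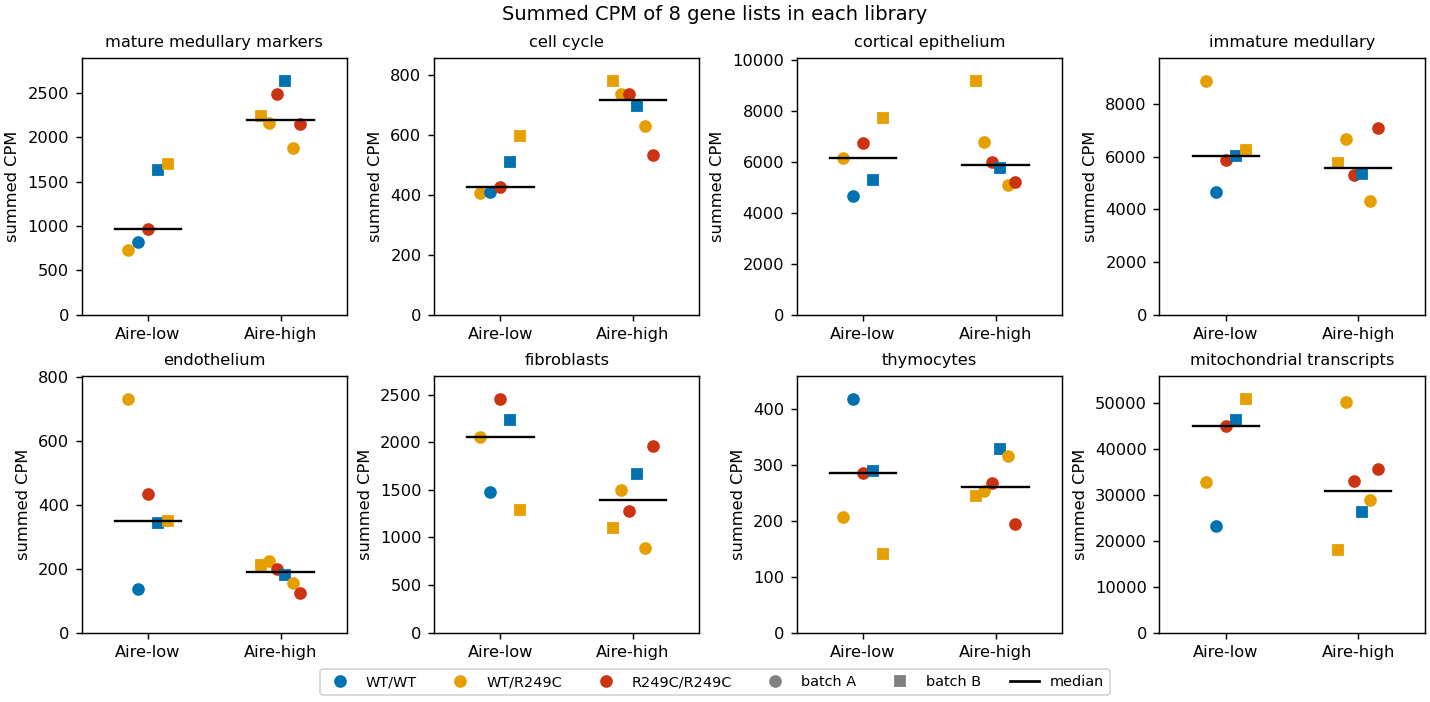
Summed CPM (y axis, from 0) of the members of 8 gene lists in each library, for the Aire-low and Aire-high sides (x axis), with the median of each side as a bar, colour for genotype and shape for batch. The mature medullary sum is apart between the sides (733 to 1699 against 1878 to 2629), while the cell cycle sums overlap (406 to 595 against 534 to 778).

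Immature medullary genes lay on the other side. Of 11 genes 2 were above 0, the median was -0.26 (-0.10 without WT/R249C replicate 2), and DESeq2 called Itgb4 lower. Itgb4, an integrin of hemidesmosomes, was at 439, 369, 303, 287 and 315 CPM against 208 to 291, and the groups overlapped at WT/WT replicate 2. Trp63, the regulator of epithelial progenitors, was at 456 to 993 CPM against 417 to 677. Krt5, a basal keratin, was at 799.7 to 1573 against 590.3 to 1180.1 CPM, and Ccl21a at 384 to 1435 against a median of 962. Cortical genes had 5 of 15 above 0 with a median of -0.09, and neither tool called any. Psmb11, a proteasome subunit of cortical cells, was at 49.9 to 118 against 17.2 to 126 CPM.

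General epithelial content was close on both sides. Epcam, the sorting marker, was at 461 ± 26.0 CPM (SD, n = 6) and 426 ± 80.8 (SD, n = 5). Of 10 pan-epithelial genes 5 were above 0, with a median of -0.03. Pax1, a transcription factor of the thymic primordium, was called lower by DESeq2 (adjusted p 0.00889), at 205, 286, 242, 259.9 and 347 CPM against 124 to 204, with no overlap. Pax9, its paralog, was at 122 to 141 against 95.2 to 123. Cldn4, a tight junction protein of the medullary lineage, was at 61.8, 239.7, 114, 193 and 316 CPM against 188 to 437.

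Markers of vessels and stroma were present in every library. All 9 endothelial genes lay below 0, at a median of -1.19 (-1.22 in batch A, -0.68 in batch B), and neither tool called any. Plvap, of fenestrated vessels, was at 343, 25.2, 192, 157 and 131 CPM against 40.9 to 86.3. Pecam1 was at 111, 16.8, 65.9, 42.2 and 60.6 CPM against 12.6 to 40.7. WT/WT replicate 1 was thus as low as the Aire-high libraries in both genes, and the other 4 Aire-low libraries were above all of them. The summed level of the list was 136 to 729 CPM on the Aire-low and 124 to 222 CPM on the Aire-high side. Fibroblast genes summed to 1285 to 2450 CPM on the Aire-low and 889.9 to 1964 CPM on the Aire-high side. They had 1 of 9 above 0 and a median of -0.86 (-0.32 without R249C/R249C replicate 2), and none reached an unadjusted p under 0.05. The part of these vessel and stromal transcripts in the values above was not tested.

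Blood cell lists showed no common direction. Thymocyte genes had 10 of 17 above 0 with a median of 0.09 (-0.19 in batch A, 0.73 in batch B), and Cd3e, of the T-cell receptor complex, was at 3.78 to 17.4 against 2.85 to 25.3 CPM. B-cell genes had 6 of 10 above 0 and a median of 0.40 (-0.09 in batch A, 0.45 in batch B, and 0.85 without WT/WT replicate 1), and their summed level ran from 159 to 2379 and from 219.6 to 3144 CPM. Blnk, a linker of B-cell receptor signalling, was called higher by voom (adjusted p 0.0444) and DESeq2 (0.0174), at 38.9, 61.6, 50.8, 65.5 and 44.1 CPM against 60.4 to 117. Myeloid genes had 7 of 12 above 0 and a median of 0.16 (-0.07 without R249C/R249C replicate 3). Outside the blood cell lists, interferon-induced genes had 3 of 13 above 0 with a median of -0.31, and Isg15 was at 233 to 354 against 171 to 315 CPM. Mitochondrial transcripts had 0 of 9 above 0 with a median of -0.35, which was 0.16 within batch A and -1.25 within batch B. They summed to 23142 to 50699 CPM on the Aire-low and 17854 to 50209 CPM on the Aire-high side.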

How the data were processed

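RNA was sequenced from EpCAM-sorted thymic cells, prepared with a low-input kit per the labels' protocols. The table deposited by the authors holds whole-number counts per gene, not normalized, for 56691 genes in 11 libraries. The submitters' processing notes name FastQC, HISAT2, StringTie and build mm39. Versions, the annotation release and the counting settings, strand included, are not given in the sources used here. The 7 columns of batch A are named as trimmed, unlike the 4 of batch B. Symbols came from an older GENCODE release, used for names (52073 genes matched).

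Libraries were divided at 500 CPM of Aire. Differences were tested with edgeR 4.0.16 (quasi-likelihood, robust, TMM scaling, filterByExpr, batch as a term) in R 4.3.3, two-sided, with Benjamini-Hochberg adjustment over 23506 genes and a threshold of 0.05. The alternatives were DESeq2 1.42.0, voom from limma 3.58.1 with sample quality weights, other scalings, filters, thresholds of 400 and 600 CPM, fits within a batch, a genotype term, a replicate block and leaving out each library. The fits adjust for batch; means of CPM carry no such adjustment. Precision is set by the spread between libraries, since all hold at least 60560348 counts. The edgeR fit was tested on simulated counts for this division in 5 runs: it recovered 3.88% of genes changed 2-fold, 28.1% of those changed 4-fold and 43.6% of those changed 8-fold, with 8 false calls in all.

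The genes named are Aire, Fezf2 and Cd80, the 8 genes per direction of smallest p, the 6 per direction of smallest p for the slope on Aire, and of each list the first 2 members and up to 3 of smallest p. A few further list members (Hmgb2, Blnk and other single calls, Relb, Rela, Ctss and the like) were named after their values were seen. So were the voom calls Gm37024, Tnfaip8l3, Try5, Ccdc180 and Spag6. The division, the 28 gene lists (326 of 327 entries matched) and the tests were chosen with earlier results of these data known.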

Additional observations from a re-analysis of the deposited data

Results flagged for a closer look

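Each of 58 results (named genes and lists) was screened in 3 groups of libraries, 174 groups in all, for a library far from the others of its group. Chance flags about 1 in 20 such groups. The screen, with the comparison of batches, raised 14 flags, of which Cd80 and the pan-epithelial list hold a pair each. All values below are log2(CPM + 1), for lists the mean over members.

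WT/R249C replicate 2, the library with the least Aire, was far below the other WT/R249C libraries in Cd80 (2.45), Actn3 (7.13) and Grap (4.99), and far above them in Frmd4b (7.43). WT/R249C replicate 3, the library with the smallest total, was the lowest of the Aire-high libraries in the mature medullary list (5.01), the MHC class II list (8.71), the pan-epithelial list (5.99) and the myeloid list (1.25). It was also the lowest WT/R249C library in the pan-epithelial list (5.99) and in the MHC class I list (8.08). WT/WT replicate 3, with the largest total, was the highest of the Aire-high libraries in Rasd1 (6.89), the ionocyte list (2.66) and the B-cell list (4.85).

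The difference in Cd80 between the sides had opposite signs in the batches: the Aire-high minus Aire-low value was -0.64 in batch B and positive in batch A. In batch A every Aire-high library lay above every Aire-low one, and in batch B every one lay below. The test of the difference by edgeR gave an adjusted p of 0.815.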

How the results depend on the processing

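The number of genes called was 0 with edgeR under every scaling, filter, threshold, batch and genotype term tried and with each library left out in turn (0 to 0 calls), but was 64 with limma voom and 474 with DESeq2; the cause was not tested. The count of the 10 fixed genes whose correlation with Aire passed went from 4 to 2 without the 2 libraries farthest from the median of Aire. Among Fezf2, Cd80 and the genes of smallest p for the division and the slope, the log2 fold change of Cd80 turned sign, to -0.66 within batch B, and no other did. The genes of smallest p were chosen on these same libraries. Sign changes of other single list members are not reported here. Among 25 alternatives, the medians of the mature medullary (0.20 to 1.62), MHC class II (0.20 to 0.59), RANK, CD40 and NF-kB (0.29 to 0.66), Aire-dependent (0.20 to 1.97), cell cycle (0.36 to 1.13) and fibroblast (-1.24 to -0.13) lists kept their sign, and those of the other 22 lists did not in at least 1 (for the tuft, muscle, immature medullary, interferon and endothelial lists, only with the replicate block). The replicate numbers of the titles showed no clear pairing of the libraries. Same-numbered libraries correlated at -0.16 to 0.21 after removal of group means, and differently numbered ones at -0.17 to 0.16. Of 9 libraries, 3 correlated best with their own number. With the replicate block, edgeR called 0 genes, the endothelial median was 0.60, and the median of all genes was 0.17 against 0.05. By title, all libraries numbered 2 are Aire-low, all numbered 3 are Aire-high, and 4 and 5 are single. The fit with the replicate block thus compares WT/WT replicate 1 alone with the Aire-high libraries numbered 1. The libraries carry a second number, under which WT/WT replicates 1, 2 and 3 are numbered 3, 4 and 5. By that number the libraries numbered 1 are all Aire-high and those numbered 2 all Aire-low. The second number was not tested as a pairing or used as a block.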
